A study of Mus musculus with 8 samples.

Results

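The genes of oxidative phosphorylation, which encode the protein subunits of the 4 respiratory chain complexes and of ATP synthase, were described across 8 RNA-seq libraries of the newborn mouse organ of Corti. Members were taken by gene symbol, as rows named Nduf with a, b, c, s or v and a number, Sdha to Sdhd, Cox4 to Cox8 with a, b or c, or with names that begin with Uqcr or Atp5, together with the protein genes of the mitochondrial genome. The symbol pattern matched 90 rows, all nuclear, of which 1 (Ndufs5-ps) is named as a pseudogene. The mitochondrial protein genes appear in the deposited tables under RefSeq names such as ND1 and COX1 rather than with an mt- prefix, so these 13 were taken as the protein-coding genes of chromosome MT in the RefSeq gene table. In all, 103 of the 41079 listed genes were members. By complex, the nuclear and mitochondrial members numbered 42 and 7 for complex I, 4 and 0 for complex II, 8 and 1 for complex III, 18 and 3 for complex IV, and 18 and 2 for complex V. The subunit genes Cox4i1, Cyc1 and Ndufab1 fall outside the symbol pattern and were not members.

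The libraries were made from ribosomal RNA-depleted total RNA of organ of Corti dissected at postnatal day 0. The genotype label is wildtype for 4 of them and Prox1 knock-out for the other 4, the latter combining Emx2-cre (Cre recombinase driven from Emx2) with floxed Prox1. The labels give no strain, no age beyond the day of birth, and nothing on whether the wildtype mice carried Emx2-cre or a floxed allele alone, and they do not say in which cells of the dissected tissue Cre acted. Nor is it stated that each library is its own animal, and p-values then reflect how far these samples spread, which may be technical variation alone.

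Oxidative phosphorylation passes electrons from NADH and succinate through complexes I, II, III and IV to oxygen, pumps protons across the inner mitochondrial membrane, and uses that gradient to drive ATP synthase, also called complex V. Its subunits come from both genomes: the mitochondrial DNA encodes a small, mostly hydrophobic core of complexes I, III, IV and V, while complex II and all remaining subunits are encoded in the nucleus and imported. In the cochlea the process is known for supplying ion transport and sensory cells, and inherited faults in mitochondrial genes are among the known causes of hearing loss.

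The regulatory sequence of the nuclear members was looked at first, because their start sites are known for short motifs of the factors NRF1, GABP (an ETS protein) and YY1. RefSeq promoters of GRCm38.p6, from 250 bases before to 50 bases after the start, were found for 70 of the 90 nuclear members. The NRF1-type letters, GCGCA and GCGC with any 1 base between them, read on both strands, were in 18 of 70 member promoters (25.7%), against 5.19% of the promoters of 27025 genes and 9.81% of those of 12056 tested coding genes. The ETS/GABP-type letters CCGGAAG were in 22.9% of member promoters, against 9.93% and 17.4%. The YY1-type letters AAGATGGC were in 14.3%, against 3.19% and 4.59%. In all, 38 members held at least 1 of the 3 motifs and 32 held none, and 0 matches of different motifs overlapped. A match is a string of letters and no measured binding site. The promoters printed here show what such matches look like, and are those of the member with the most reads in each complex among members with an NRF1-type match before the start, which complex III lacks. Each runs 5′ to 3′ from 10 bases before its first NRF1-type match to the base before the start, with matches to the 3 motifs in capitals. They are on GRCm38.p6, an older build than the GRCm39 that the submitters' processing notes name.
Ndufa11 promoter, chr17:56717692-56717761, plus strand: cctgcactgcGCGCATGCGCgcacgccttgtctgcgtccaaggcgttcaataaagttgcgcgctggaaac
Sdha promoter, chr13:74350241-74350348, minus strand: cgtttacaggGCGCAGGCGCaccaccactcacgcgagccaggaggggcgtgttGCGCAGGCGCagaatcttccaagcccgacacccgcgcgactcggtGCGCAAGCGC
Cox6a1 promoter, chr5:115348959-115349130, minus strand: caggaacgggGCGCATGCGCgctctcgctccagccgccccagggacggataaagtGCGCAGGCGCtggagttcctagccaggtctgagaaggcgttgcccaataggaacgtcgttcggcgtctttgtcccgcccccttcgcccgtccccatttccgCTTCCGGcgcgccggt
Atp5f1c promoter, chr2:10080433-10080459, minus strand: ctgagctcccGCGCACGCGCactgagt
The Sdha promoter holds 3 NRF1-type matches within 108 bases, and the Cox6a1 stretch holds 2 NRF1-type matches and 1 ETS/GABP-type match on the opposite strand. Among tested members, those with an NRF1-type match had a median log2 fold change (labelled knockout over wildtype) of -0.06 (n = 18) and those without one -0.08 (n = 50), and the difference was not tested.

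Each library held 29908965 to 42318233 counts, of which 115337 to 164874 fell on nuclear members and 413336 to 588834 on mitochondrial ones. CPM here are counts scaled to library size by TMM, which balances libraries on the bulk of their genes. Prox1 had 106 to 115 CPM in the wildtype libraries and 134 to 147 CPM in those labelled knockout, not lower but higher. Its log2 fold change was 0.33 ± 0.05 (SE, edgeR adjusted p = 0.0298). That call was lost in 7 of the 8 fits with 1 library left out, with the replicate block (edgeR adjusted p = 0.159), with the covariate used further on, and without wildtype libraries 1 and 3. Its log2 fold change ranged from 0.28 to 0.34 over all fits. Counts per gene do not separate the floxed part of Prox1 from the rest of it, so they cannot settle whether the label holds. Directions are therefore given for the libraries as labelled. The tissue label was checked against 10 hair cell markers, all detected, which lay between 529 and 644 CPM in sum for wildtype, against 533 to 595 CPM for those labelled knockout. Markers of mesenchyme and cartilage were also abundant, at 14713 to 17017 CPM and 12820 to 14977 CPM, so the tissue holds more than the sensory epithelium. In bulk samples like these, fewer cells of a type and less RNA per cell cannot be told apart.

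No member changed by the test. Of the 103 members, 98 passed the low-count filter, and 0 of these rose and 0 fell in the libraries labelled knockout at an adjusted p under 0.05 (edgeR, quasi-likelihood), where 0.0923% of the 20581 tested genes were called (0.0340% higher and 0.0583% lower). The smallest adjusted p of a member was 0.578. DESeq2 and limma-voom also called 0 members, and among the 95 members with an adjusted p in the authors' deposited table, none was under 0.05, with a smallest value of 0.409. At an unadjusted p under 0.05, edgeR placed 2 members higher, ND6 and Cox7a1, against 4.76% of tested genes, and 4 members lower, Uqcrq, Atp5f1e, Sdhc and Uqcrc2, against 2.78%. The number of such lower members was 17 when wildtype library 2 (5.84% of all tested genes) or library 4 labelled knockout (6.57%) was left out. It was 2 when wildtype library 1, wildtype library 3, or library 2 or 3 of those labelled knockout was, against 1.76% to 2.26% of all tested genes.

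Below that threshold, the nuclear and the mitochondrial members lay on opposite sides of 0. Of the 85 tested nuclear members, 69 had a log2 fold change below 0, with a median of -0.08 and a range from -0.34 to 0.69. All 13 mitochondrial members were above 0, with a median of 0.10 and a range from 0.01 (COX1) to 0.30 (ND6). Over all tested genes the median was 0.00, with 10290 below 0 and 10291 above, and over the 9397 more abundant of these (average log2 CPM 4 or higher) it was -0.03, with 64.6% below 0. Without library 3 labelled knockout the mitochondrial median was 0.03 and the nuclear one -0.06. Members are not replicates of a genotype, and no p is given for their medians.

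**Figure D1:**
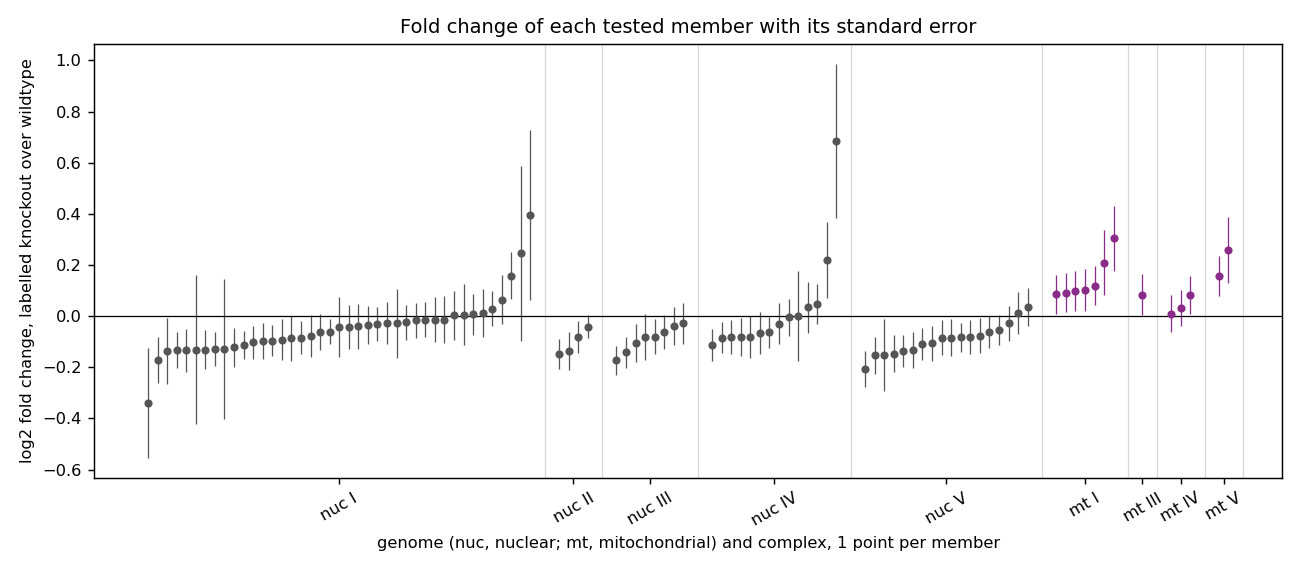
Log2 fold change of labelled knockout over wildtype (y axis) for the 98 tested members, 1 point per gene with the standard error of the edgeR fit, grouped by genome and complex along the x axis and ordered by value within each. The 13 mitochondrial points lie above 0 and 69 of the 85 nuclear points lie below it, with most standard errors reaching close to or across 0.

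The summed level of the nuclear members was 4247, 3795, 4264 and 4016 CPM in wildtype libraries 1 to 4, and 3912, 3628, 3689 and 4085 CPM in libraries 1 to 4 labelled knockout. Wildtype libraries 1 and 3 were the highest and libraries 2 and 3 labelled knockout the lowest, and the groups overlapped. On average they held 4081 ± 222 against 3829 ± 210 CPM (SD, n = 4 per group). The mitochondrial members summed to 14413, 13554, 14167 and 12887 CPM in wildtype libraries 1 to 4, against 14019, 13489, 15973 and 14497 CPM in libraries 1 to 4 labelled knockout, with means of 13755 ± 682 and 14495 ± 1068 CPM (SD, n = 4 per group). Library 3 labelled knockout stood highest and wildtype library 4 lowest, and the groups overlapped here too.

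**Figure D2:**
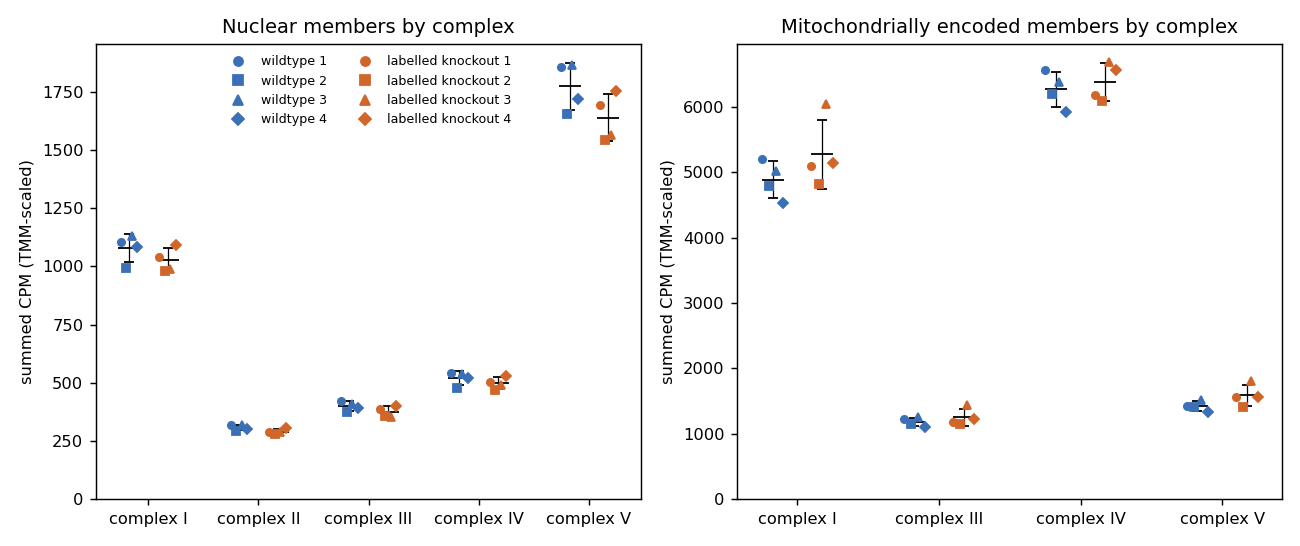
Summed TMM-scaled CPM (y axes, from 0) of nuclear members (left) and mitochondrial members (right) by complex, with 1 symbol per library and a bar for the mean ± SD of each group of 4. On this scale the groups overlap in every complex, and library 3 labelled knockout is the highest of the 8 for each mitochondrial complex.

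A set of 8 nuclear long noncoding RNAs ran against the nuclear members across libraries in its summed level. Malat1 made up most of that sum, with a mean of 4850 CPM, while the least abundant, Mirg, had 1.45 CPM. The 8 summed to 4717, 5754, 3467 and 5429 CPM in wildtype libraries 1 to 4, and to 5906, 6675, 7216 and 4711 CPM in libraries 1 to 4 labelled knockout. Wildtype library 3, the lowest in noncoding RNA, held the highest value of 28 of 85 nuclear members, and wildtype library 1 that of 23. The lowest value fell in library 2 labelled knockout for 26 members, in library 3 labelled knockout for 24 and in wildtype library 2 for 20, which were the second, the first and the fourth in noncoding RNA level. With the log2 summed noncoding RNA level as a covariate, the nuclear median was 0.00034, while the mitochondrial median was 0.09. The covariate itself differed by label: its summed level averaged 4842 CPM for wildtype and 6127 CPM for labelled knockout, with overlapping groups. That fit can therefore also take out part of a genotype difference, and it cannot tell noncoding RNA level and genotype label apart. Whether the noncoding RNA share has a part in the nuclear values was not tested.

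**Figure D3:**
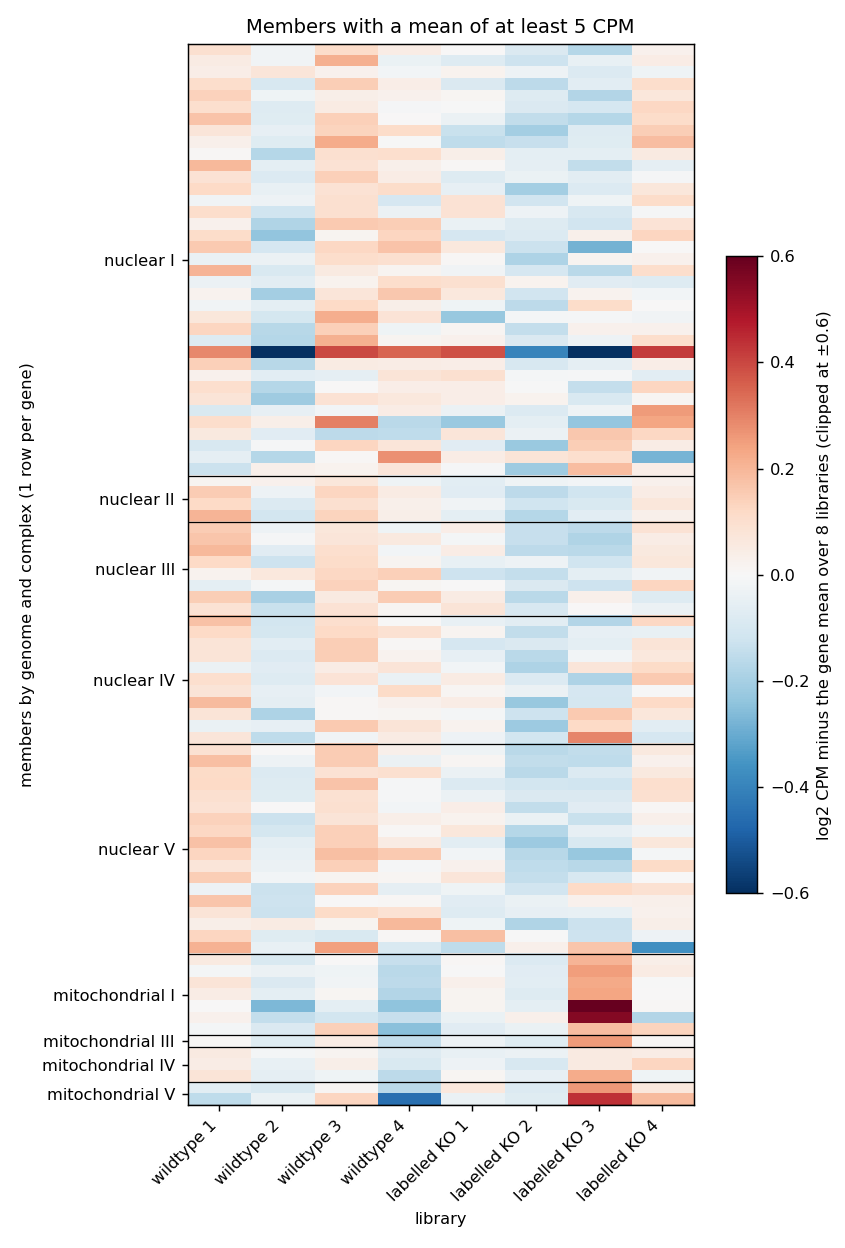
Deviation of each member from its own mean over the 8 libraries, in log2 CPM (colour, clipped at ±0.6), for members with a mean of at least 5 CPM, in rows by genome and complex, with libraries in columns. Nuclear rows are mostly red in wildtype libraries 1 and 3 and mostly blue in wildtype library 2 and in libraries 2 and 3 labelled knockout. Library 4 labelled knockout is more red than blue in these rows, so the colours do not follow the genotype labels throughout. The mitochondrial rows are reddest in library 3 labelled knockout.

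The mitochondrial members stood far above the nuclear ones per length. The mitochondrial genome is transcribed from both strands into long polycistronic RNAs that are cut at transfer RNAs, so its genes start from shared transcripts. Per kilobase of gene (GENCODE M21, GRCm38), the mean over 8 libraries ran from 294 ± 29.4 CPM for ND3 to 2410 ± 82.0 CPM for COX1 (SD, n = 8), with a median of 919 CPM per kb. The median of the 80 nuclear members with a matched transcript was 34.6 CPM per kb, and the highest was Atp5f1b, the catalytic beta subunit of ATP synthase, at 245 ± 18.5 CPM per kb. Nuclear lengths are those of the longest principal transcript of a gene, or of its longest coding transcript where none is marked principal. Values per kilobase of nuclear members depend on that choice. COX1, ATP6 (2112 ± 200 CPM per kb) and COX3 (2075 CPM per kb) headed the order, and their neighbours ATP6 and COX3 did not differ beyond their spread.

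Within the mitochondrial genome the deposited counts treat ATP8 and ATP6 as separate genes although their reading frames overlap on 1 transcript. The stretch they share is 43 bases long, 21.1% of the length of ATP8, and is printed here because reads over it can belong to either gene.
ATP8 and ATP6 overlap, GRCm38 chrM:7927-7969, plus strand: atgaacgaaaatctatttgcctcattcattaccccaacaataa
ND4L and ND4 share 7 bases on 1 strand, and ND5 and ND6 share 14 bases on opposite strands. How the authors' counting assigned such reads, and whether it used strand, is not given in the sources used here. Values of ATP8 and of ND6 are therefore uncertain, and not for the shared bases alone. Per kilobase ATP8 had 306 CPM against 2112 CPM for ATP6, although both lie on 1 transcript, and the part of the counting in that gap was not tested. For ND6, the use of strand bears on the whole gene.

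**Figure D4:**
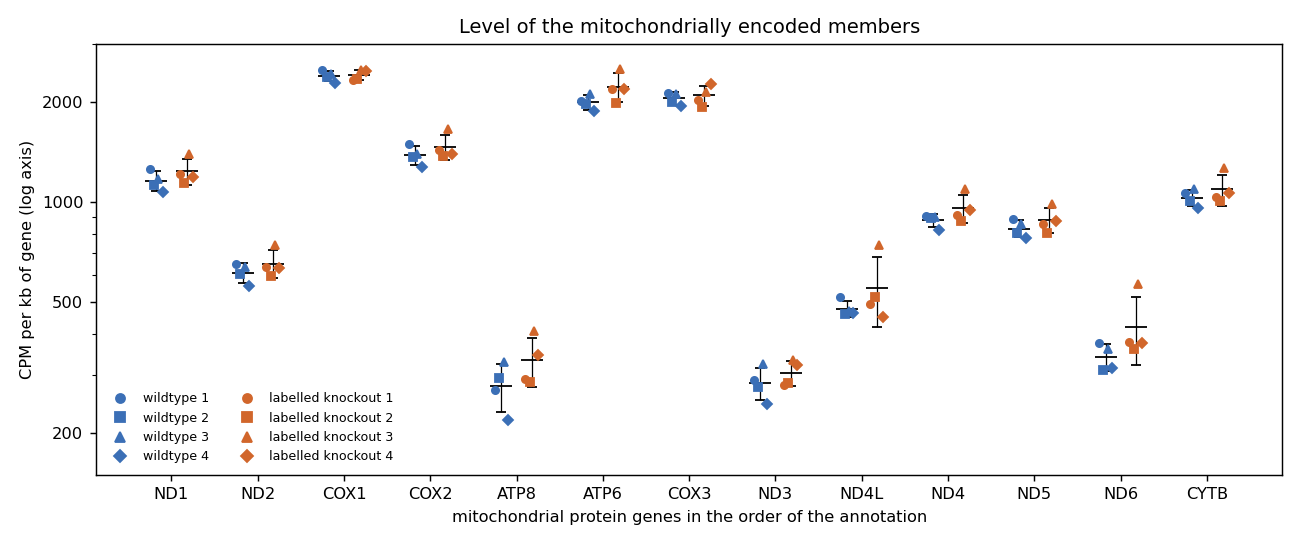
CPM per kilobase of gene (y axis, log scale) of the 13 mitochondrial protein genes in annotation order (x axis), with 1 symbol per library and bars for the mean ± SD of each group of 4. Library 3 labelled knockout is the highest of the 8 for 11 of 13 genes and wildtype library 4 the lowest for 10 of 13, and the groups overlap for every gene.

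Among the 7 mitochondrial subunits of complex I, the proton-pumping NADH dehydrogenase, log2 fold changes ran from 0.09 to 0.30. ND6, the only protein gene on the opposite strand to the rest, had 194, 161, 186 and 164 CPM in wildtype libraries 1 to 4 and 196, 186, 294 and 195 CPM in libraries 1 to 4 labelled knockout. The high value of library 3 labelled knockout stood apart from the other 7, which overlapped. Its log2 fold change was 0.30 ± 0.13 (SE, edgeR adjusted p = 0.647), and 0.12 without that library. ND4L, a small membrane subunit, was likewise highest in that library, at 221 CPM against 133 to 154 CPM in the other 7, and its log2 fold change of 0.21 became 0.03 without it. ND1, ND2, ND3, ND4 and ND5, the remaining membrane subunits, had log2 fold changes of 0.09 to 0.12, and of 0.02 to 0.05 without that library.

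Nuclear complex I, whose subunits make up the peripheral arm and the accessory shell, had 42 members, with gene copies and a pseudogene among them. Of the 41 tested, 32 were below 0, and the median was -0.04. Rows with near-identical copies (Ndufb4, Ndufb4b and Ndufb4c, Ndufs6 and Ndufs6b, Ndufa11 and Ndufa11b, Ndufb11 and Ndufb11b, Ndufs5 and Ndufs5-ps) are uncertain, since the treatment of reads mapping to several places is not given. Ndufs5-ps, named after its values were seen, had 1.73 to 5.44 CPM.

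Complex II, succinate dehydrogenase, links the citric acid cycle to the chain and is wholly nuclear. All 4 of its genes were below 0, with a median of -0.11, and none passed. Among all 20581 tested genes 10290 lay below 0, and among the more abundant ones 64.6% did. On plain library totals in place of TMM, the 4 genes summed to 301 to 308 CPM in wildtype. In the libraries labelled knockout they summed to 282 to 298 CPM, without overlap. On that scale the sums of the other complexes overlapped, and on TMM-scaled CPM those of complex II did too. Sdhc, a membrane anchor that holds part of the haem and ubiquinone site, had 76.7, 67.5, 75.4 and 71.3 CPM in wildtype and 65.8, 61.9, 63.6 and 71.3 CPM in the libraries labelled knockout. Library 4 labelled knockout lay within the wildtype range and the other 3 below it. On the log2 scale Sdhc stood at -0.15 ± 0.06 (SE), with edgeR's adjusted p at 0.647 and an exact permutation p of 0.0571 (two-sided, n = 4 per group, smallest possible 0.0286). Sdhd, the other membrane anchor, had a log2 fold change of -0.14 ± 0.07 (SE) and of -0.09 without wildtype library 1, Sdhb, the iron-sulphur subunit, -0.08, and Sdha, the flavoprotein that oxidises succinate, -0.04. Per kilobase, Sdha and Sdhb did not differ beyond their spread, at 46.8 ± 1.33 and 45.3 ± 2.89 CPM, above Sdhd at 34.0 ± 3.00 and Sdhc at 21.8 ± 1.70 CPM (SD, n = 8). The length used was 3171 bases for Sdhc and 1142 bases for Sdhb.

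Complex III, which passes electrons from ubiquinol to cytochrome c, held the 1 member whose groups did not overlap. Its 8 nuclear genes were all below 0, with a median of -0.08, beside 64.6% of the more abundant tested genes. Uqcrq, a small subunit next to cytochrome b, had 33.2, 34.2, 35.7 and 36.2 CPM in wildtype and 30.1, 29.7, 31.5 and 32.3 CPM in the libraries labelled knockout. Every wildtype value lay above every value of the libraries labelled knockout, and no library stood apart. Its fold change was -0.17 ± 0.06 on the log2 scale (SE), with edgeR's adjusted p at 0.578 and an exact permutation p of 0.0286 (two-sided, n = 4 per group), the smallest this design allows. Groups that did not overlap were found for 1 of 98 members and for 3.69% of all tested genes (1.62% lower), so the share of members was below that of all genes. On plain library totals 8 members did not overlap (3.91% of all genes). Among them were ATP6 and ND6 higher and Sdhc, Atp5f1e, Uqcrc2, Atp5f1b and Atp5f1a lower, while Uqcrq overlapped. This scaling was planned for the summed levels and was applied to single members after the data were seen.

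The 2 core proteins of complex III, Uqcrc1 and Uqcrc2, were measured with more reads than Uqcrq. Uqcrc2, named after its values were seen, had 87.5, 77.6, 82.0 and 81.3 CPM in wildtype and 77.4, 71.0, 68.9 and 80.4 CPM in the libraries labelled knockout, and only the last of these lay within the wildtype range. The log2 fold change was -0.14 ± 0.06 (SE, edgeR adjusted p = 0.647). Uqcrc1 overlapped, with 116 ± 7.13 and 110 ± 9.39 CPM (SD, n = 4 per group) and a log2 fold change of -0.08. CYTB, the mitochondrial subunit that carries the haems, was at 1178 ± 68.3 and 1249 ± 134 CPM, with a log2 fold change of 0.08 that became 0.0040 without library 3 labelled knockout.

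In complex IV, cytochrome c oxidase, the 3 mitochondrial genes make up the catalytic core and the nuclear genes surround it. COX1, which holds the site of oxygen reduction, had 3865, 3690, 3761 and 3532 CPM in wildtype and 3608, 3637, 3864 and 3836 CPM in the libraries labelled knockout, values that overlapped over most of their range (log2 fold change 0.01). COX2 and COX3 had 0.08 and 0.03, and without library 3 labelled knockout 0.02 and 0.01. Of 14 tested nuclear members, 9 were below 0, with a median of -0.05. Cox7a2l, an assembly factor of supercomplexes and the one with the most reads, was at 109 ± 9.22 and 103 ± 8.95 CPM (SD, n = 4 per group).

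Several subunits of complex IV exist as a ubiquitous and a tissue-restricted isoform, and the ubiquitous one prevailed in every set. Cox6a1 had 50.2 ± 3.78 CPM per kb while its heart and skeletal muscle counterpart Cox6a2 had 0 counts in 7 libraries and 1 count in library 2 labelled knockout. Cox8a had 134 ± 9.50 CPM per kb, against 0.671 ± 0.279 for the muscle isoform Cox8b and 0 counts in all 8 libraries for Cox8c, the testis form. Cox6b1 was at 117 ± 7.56 CPM per kb and Cox6b2, known from testis, at 6.16 ± 0.840. The same order held for Cox7b (36.0 ± 2.38) over Cox7b2 (0 to 4 counts in a library) and for Ndufa4, now counted with complex IV, at 70.7 ± 4.80 over Ndufa4l2, a hypoxia-responsive relative, at 2.86 ± 0.420 CPM per kb (SD, n = 8). Skeletal and cardiac muscle cells and testis cells were scarce by their markers. The 15 skeletal and cardiac muscle markers summed to 6.29 to 12.7 CPM in wildtype, against 6.93 to 8.21 CPM among the libraries labelled knockout. The 5 testis markers summed to 1.20 to 1.99 and 1.28 to 2.09 CPM. Markers of smooth muscle and pericytes, 5 in number, were not scarce, at 310 to 367 and 300 to 331 CPM.

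**Figure D5:**
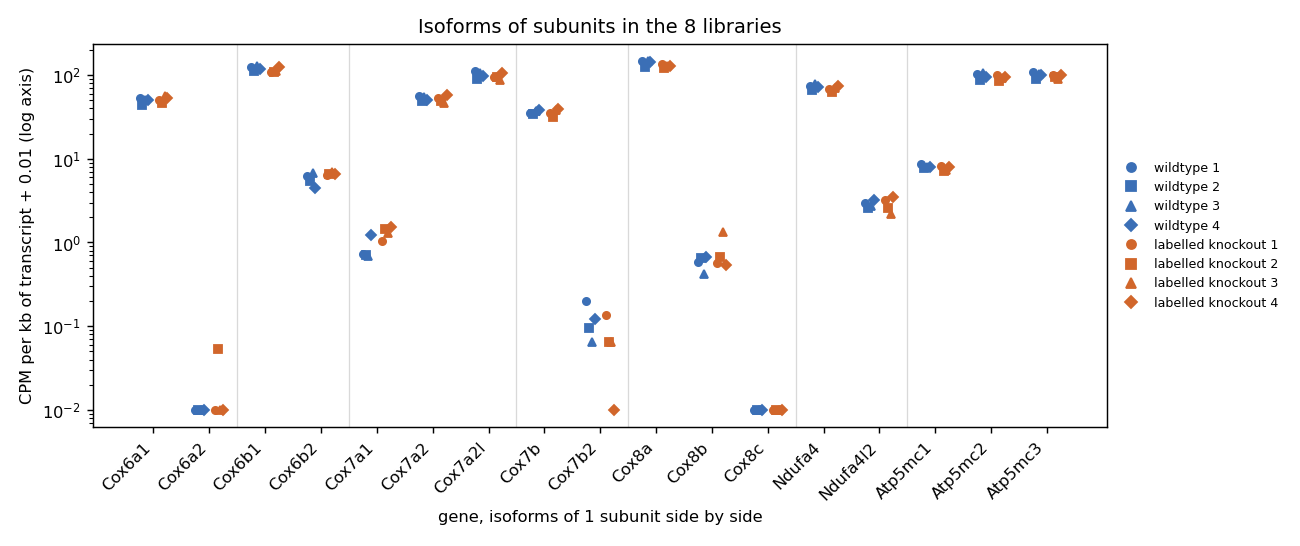
Level of subunit isoforms in CPM per kilobase of transcript plus 0.01 (y axis, log scale), with 1 symbol per library and the isoforms of a subunit side by side between grey lines. The ubiquitous forms Cox6a1, Cox6b1, Cox7a2, Cox7b, Cox8a and Ndufa4 lie above their tissue-restricted counterparts in every library.

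Cox7a1, the heart and skeletal muscle form of subunit VIIa, was the member with the highest fold change and rested on few reads. It had 11, 12, 9 and 16 counts in wildtype and 12, 19, 17 and 19 in the libraries labelled knockout, or 0.285, 0.276, 0.263 and 0.478 CPM against 0.407, 0.565, 0.508 and 0.599 CPM. Wildtype library 4 lay among the libraries labelled knockout and the other 3 wildtype libraries below all of them. Its log2 fold change was 0.69 ± 0.30 (SE, edgeR adjusted p = 0.647). The summed skeletal and cardiac muscle markers gave no such order, with group means of 8.87 ± 2.96 and 7.56 ± 0.575 CPM (SD, n = 4 per group). Cox7a2, the ubiquitous form, had 52.1 ± 4.13 CPM per kb, against 1.08 ± 0.344 for Cox7a1.

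Complex V, ATP synthase, had 16 of 18 nuclear members below 0, with a median of -0.08, while its 2 mitochondrial members had a median of 0.21. Atp5f1e, the epsilon subunit of the central stalk, had 48.5, 43.0, 50.3 and 49.4 CPM in wildtype and 43.9, 39.6, 38.0 and 44.1 CPM in the libraries labelled knockout. Wildtype library 2 lay among the libraries labelled knockout and the other 3 wildtype libraries above them. On the log2 scale the difference was -0.21 ± 0.07 (SE), with edgeR's adjusted p at 0.585 and an exact permutation p of 0.0857 (two-sided, n = 4 per group). Atp5f1b had 499, 469, 521 and 479 CPM in wildtype and 461, 419, 423 and 487 CPM in the libraries labelled knockout, a log2 fold change of -0.14 ± 0.06 (SE) with overlapping groups.

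ATP6, the channel subunit through which protons enter, had 1370, 1346, 1447 and 1280 CPM in wildtype and 1499, 1353, 1716 and 1497 CPM in the libraries labelled knockout. Library 2 labelled knockout lay within the wildtype range and the other 3 above it. Its log2 fold change was 0.16 ± 0.08 (SE), and that of ATP8, a small membrane subunit, 0.26 ± 0.13 (SE), both with 0.647 as adjusted p (edgeR). Without library 3 labelled knockout they were 0.09 and 0.14. The rotor ring is built from subunit c, encoded by 3 genes with the same mature protein. Atp5mc2 and Atp5mc3 had 94.8 ± 7.15 and 98.1 ± 6.41 CPM per kb (SD, n = 8), which did not differ beyond their spread. Atp5mc1 had 37.1 CPM, or 7.86 CPM per kb over the transcript used, of 4715 bases, so its value per kb depends on the choice of the longest transcript. Atp5if1, the inhibitor that blocks the reverse reaction, was at 35.5 ± 2.87 and 36.4 ± 2.70 CPM.

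Dividing mitochondrial by nuclear members of the same complex within a library removes the scaling between libraries. For complex V this ratio of summed CPM was 0.767, 0.848, 0.812 and 0.770 in wildtype libraries 1 to 4 and 0.920, 0.913, 1.15 and 0.893 in libraries 1 to 4 labelled knockout. Every library labelled knockout lay above every wildtype library. The mitochondrial part of this ratio is ATP6 and ATP8 alone. Over all complexes together the groups overlapped, with ratios of 3.21 to 3.57 in wildtype and 3.55 to 4.33 in the libraries labelled knockout. For complexes I, III and IV the groups overlapped, with ratios of 4.18 to 4.82 and 4.70 to 6.10 for complex I, 2.79 to 3.08 and 3.04 to 4.10 for complex III, and 11.4 to 13.0 and 12.3 to 13.6 for complex IV. The ratios were described and given no p, because they are sums over the members.

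Neighbouring parts of mitochondrial metabolism were read from lists of related genes, and 0 genes of the 13 lists passed in edgeR's test. Both mitochondrial ribosomal RNAs were above 0. The large one, mt-Rnr2, had 3185, 3299, 3255 and 2508 CPM in wildtype and 3524, 3714, 3846 and 4070 CPM in the libraries labelled knockout. These did not overlap, as was so for 3.69% of all tested genes, and the log2 fold change was 0.31 ± 0.10 (SE, edgeR adjusted p = 0.569). For mt-Rnr1, the small one, the log2 fold change was 0.79 ± 0.23 (SE), and 0.50 without library 3 labelled knockout. These libraries were depleted of ribosomal RNA, so the values are what the depletion left, and its part in the difference was not tested. All 17 genes of the citric acid cycle list were below 0 (median -0.08), with Cs, citrate synthase, at -0.12 ± 0.05 (SE), and 16 of 18 glycolysis genes were below 0 (median -0.10), with Pgk1, phosphoglycerate kinase, at -0.19 ± 0.05 (SE, edgeR adjusted p = 0.532). The mitochondrial ribosome had 58 of 78 proteins below 0 (median -0.04), and carriers and channels such as the ADP/ATP translocator gene Slc25a5 9 of 10 (median -0.10). Beside these counts, 64.6% of the more abundant tested genes lay below 0 (median -0.03).

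Assembly factors build the complexes without being part of them. Their median log2 fold changes were -0.01 for complex I (8 above and 9 below 0), -0.04 for complex II, 0.02 for complex III, -0.01 for complex IV and -0.08 for complex V. The 26 tested genes that maintain and transcribe mitochondrial DNA had a median of 0.01, with Ssbp1, the mitochondrial single-stranded DNA binding protein, at 0.20 ± 0.09 (SE). Of 12 nuclear regulators of respiration, 7 were above 0. Nrf1, whose motif is shown above, had a log2 fold change of 0.14 ± 0.07 (SE), and Esrrb, an orphan nuclear receptor, -1.91 ± 0.52 (SE, edgeR adjusted p = 0.440). Esrrb had 32.4, 14.0, 21.4 and 3.29 CPM in wildtype and 8.21, 3.75, 3.80 and 3.31 CPM in the libraries labelled knockout. Without wildtype library 4, the only wildtype library as low as those labelled knockout, Esrrb was at -2.25 and passed (edgeR adjusted p = 0.0272). That was 1 of 8 fits with a single library left out, and Esrrb passed in none of the others. Under the 10 other settings Esrrb did not pass either (smallest adjusted p = 0.0777 over the edgeR, DESeq2 and limma-voom fits). It is also a gene of the marginal cells of the stria vascularis. The 11 listed stria and melanocyte markers, which include Esrrb itself, summed to 1431 to 1692 CPM in wildtype. In the libraries labelled knockout they summed to 1348 to 1459 CPM, and the most abundant of them had a mean of 913 CPM. The part of these cells in the value of Esrrb was not tested. Among subunits outside the symbol pattern, Cox4i2, the hypoxia-responsive isoform of subunit IV, had 3.13, 2.67, 3.22 and 3.55 CPM against 2.61, 2.05, 2.00 and 2.21 CPM. These did not overlap, as was so for 3.69% of all tested genes. Cox4i2 stood at -0.50 ± 0.16 on the log2 scale (SE, edgeR adjusted p = 0.569), while the ubiquitous Cox4i1 was at -0.14 ± 0.07 (SE).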

How the data were processed

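Per the labels' protocols, RNA was purified with RNeasy kits, ribosomal RNA was depleted, and NEBNext Ultra II libraries followed. For alignment and counting, the submitters' processing notes list HISAT2 2.2.1 and featureCounts, beside cutadapt 4.3, FastQC 0.12.1 and DESeq2, with build GRCm39. Not given in the sources used here are the annotation, the strand setting and how multi-mapping reads were treated. Per the file headers, the deposited tables hold raw counts for each gene and library, with the mean and SD of the 4 counts of a group as a signal, which differed from the counts in 0 genes and was not tested. The deposited DESeq2 table holds a baseline signal, a log2 fold change with its standard error, a test score and p-values, raw and adjusted.

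From the counts, 20581 of 41079 genes passed edgeR's filterByExpr (minimum count 10). Libraries were scaled by TMM and tested with edgeR 4.0.16 (quasi-likelihood, genotype as the single factor) in R 4.3.3, with Benjamini-Hochberg adjustment over all tested genes and a threshold of 0.05. For single values, exact permutation tests (two-sided) ran over all 70 assignments. Lengths came from GENCODE M21, as the longest principal transcript or else the longest coding one, and promoters from RefSeq, both GRCm38. Alternatives were RLE and upper-quartile scaling, library sizes without 37 mitochondrial, 8 haemoglobin and 60 ribosomal RNA genes, no filter, a filter of 50 counts in 4 libraries, DESeq2 1.42.0, limma-voom 3.58.1, a replicate block, a covariate of 8 noncoding RNAs, and libraries left out. Counts of any pair of same-group libraries differed beyond sampling noise (chi-square per degree of freedom 10.7 or more).

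Members and lists were chosen with earlier results of these data known. The genes named are all mitochondrial protein genes, the nuclear member of each complex with the highest mean CPM and with the smallest p, members with an unadjusted p under 0.05 and groups that do not overlap, the isoform sets, the 4 Sdh genes, up to 3 genes of smallest p per list, and Prox1 and Emx2. Other names are for description of sequence or copies, or are stated as chosen later. A gene that this rule names is not reported here. Emx2 had a log2 fold change of 0.28 ± 0.10 (SE).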

Additional observations from a re-analysis of the deposited data

Results flagged for a closer look

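Of 110 groups of 4 values examined, 6 held a library far from the other 3, and chance flags about 1 group in 20. ND6 had 294 CPM in library 3 labelled knockout, against 186 to 196 CPM in the other libraries of that group. The mitochondrial to nuclear ratio was also set apart in that library, at 6.10 for complex I against 4.70 to 4.93 and at 1.15 for complex V against 0.893 to 0.920. Cox7a1 had 0.478 CPM in wildtype library 4, where the remaining wildtype libraries lay between 0.263 and 0.285 CPM. In wildtype library 2, Cox8a, a subunit of cytochrome c oxidase, had 68.4 CPM against 78.3 to 80.0 CPM, and Ndufa12, an accessory subunit of complex I, had 7.23 CPM against 14.9 to 16.1 CPM.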

How the results depend on the processing

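Under 10 other settings (scalings, filters, tools, the replicate block, the noncoding RNA covariate, and wildtype libraries 1 and 3 left out together), 0 members were called in either direction, and likewise with each library left out. At an unadjusted p under 0.05, the 4 lower members became 7 with no filter (2.70% of all tested genes) and 1 with the covariate (2.65%), and without wildtype libraries 1 and 3 they became 1 (1.63%) while the 2 higher ones became 5 (1.89%). Leaving out single libraries gave 2 to 17 lower (1.76% to 6.57% of all tested genes) and 0 to 3 higher (2.45% to 8.15%). The 1 member without overlap became 10 without wildtype libraries 1 and 3 (10.7% of all tested genes). It became 8 on plain library totals (3.91%, applied to single members after the data were seen). With single libraries left out it became 1 to 18 (5.01% to 13.5%), where fewer samples make overlap rarer. With the covariate the nuclear median turned to 0.00034, complex I to 0.000343, complex III to 0.00138 and complex IV to 0.0175, and signs turned for Uqcrc1 (0.00878), Cox7a2l (0.0296), Cox6b1 (0.00547), Cox7a2 (0.087), Cox7b (0.0419), Ndufa4 (0.00415), Atp5mc2 (0.000892), Atp5mc3 (0.0125), Sdhb (0.00034), Ndufa12 (0.283) and Ndufs5-ps (-0.104). Without wildtype libraries 1 and 3 the median of complex II was -0.0255, and signs turned for Cox7a2l (0.0162), Cox7a2 (0.0479), Ndufa4l2 (-0.00174), Atp5mc2 (0.00991), Atp5mc3 (0.0157), Ndufa12 (0.117) and Ndufs5-ps (-0.0928). Cox7b turned to 0.0106 with upper-quartile scaling and 0.00877 with the stricter filter, and Ndufa4l2 to -0.00508 with no filter and -0.0174 with limma-voom. Single libraries left out moved COX1 from -0.0149 to 0.0284, COX3 from -0.0108 to 0.0655, Cox6a1 from -0.0054 to 0.0941, Cox7a2 from -0.0904 to 0.0226, Cox7b from -0.0456 to 0.0519, Ndufa4l2 from -0.103 to 0.109, Atp5if1 from -0.00229 to 0.0902 and Ndufa12 from -0.34 to 0.0422. The cause was not tested. Of 701 pairs of a named member and a setting, 660 kept their sign, 41 did not, and 0 were called.

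Replicate numbers gave no sign of pairing: deviations of same-numbered libraries correlated at 0.16, 0.27, -0.34 and -0.16, so 2 of 4 were below 0. Differently numbered libraries ranged from -0.50 to 0.46, a spread that could hide a shared origin, so this check cannot settle whether the libraries are paired. The replicate block called 0 members, gave 6 lower (2.83% of all tested genes) and 2 higher (3.93%) at an unadjusted p under 0.05, a nuclear median of -0.07 and a mitochondrial one of 0.10, and turned Ndufa4l2 to -0.0128.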

Other observations

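Ndufa12, named after its values were seen, split the libraries in a way that the genotype labels do not follow. It had 14.9, 7.23, 16.1 and 15.5 CPM in wildtype libraries 1 to 4 and 15.9, 9.28, 7.60 and 16.3 CPM in libraries 1 to 4 labelled knockout. Wildtype library 2 and libraries 2 and 3 labelled knockout were low, and the other 5 lay within 14.9 to 16.3 CPM. Among 10992 genes with a mean of at least 10 CPM, the profile most like it over the 8 libraries was that of Gatad1 (r = 0.978), followed by Chchd2 (r = 0.978), which encodes a mitochondrial intermembrane space protein, and Tmed9 (r = 0.971). Chchd2 had 90.2, 68.3, 86.1 and 89.0 CPM in wildtype and 87.8, 72.7, 66.2 and 86.6 CPM in the libraries labelled knockout, a smaller relative range with the same 3 libraries low. The correlations describe profiles picked from many genes over 8 shared libraries and carry no p.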
